A study of Mus musculus with 2 samples.

Results

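The mouse family of miR-103 and miR-107 comprises mmu-miR-103-3p, mmu-miR-107-3p and their 5p partners mmu-miR-103-1-5p, mmu-miR-103-2-5p and mmu-miR-107-5p, which were chosen by name as 5 of the 1915 mature miRNAs in the count table. All 5 had at least 1 count in each library. Small RNA was sequenced from unstimulated bone marrow-derived macrophages (BMDMs) of wild-type C57/BL6 mice aged 8 weeks, with no stimulus and no deletion in either library. The 2 libraries, replicates 1 and 2, are biological replicates of this single condition and held 7322969 and 8094314 miRNA counts. The paper's legend for its small RNA reads gives a larger n than the 2 libraries analysed here. BMDMs are macrophages grown in culture from marrow progenitors with L-cell medium, and no sort of the cells was described. Levels are given as counts per 1000000 miRNA counts of the library (RpM), and mature miRNAs of nearly equal length were compared without scaling for length.

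A miRNA hairpin is cut into a duplex with a strand from its 5p arm and a strand from its 3p arm. Usually the Argonaute protein keeps one strand, the guide, and the other is degraded. The guide binds messenger RNAs through its seed, bases 2 to 8 from its 5′ end, and lowers their output. The hairpins of this family lie in introns of Pank genes, which encode pantothenate kinases, the enzymes that open coenzyme A synthesis. miR-103 and miR-107 are known as repressors of Dicer and of Cav1, and for lowering insulin sensitivity in liver and fat.

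Both 3p members have the same seed, shown in capitals in their mature sequences, which are written 5′ to 3′ (RefSeq, GRCm38.p6), and they are shown because a single base near the end separates miR-103 from miR-107.
miR-103-3p: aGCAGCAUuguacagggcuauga
miR-107-3p: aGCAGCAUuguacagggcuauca
They differ by 1 substitution, G22C, with miR-103-3p first and positions counted from 1 at the 5′ end. Of the 23 bases, the first 21 are shared, so a read that lies within them fits both names. Among the 1623 names in the table with a RefSeq mature sequence, these 2 were the names with this seed.

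The 5p members are shown in the same way, with the seed in capitals, because they carry the information on the locus.
miR-103-1-5p: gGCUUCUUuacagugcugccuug
miR-103-2-5p: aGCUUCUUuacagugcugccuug
miR-107-5p: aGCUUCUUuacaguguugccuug
miR-103-2-5p and miR-103-1-5p differ by A1G, their first base, and share the other 22 bases. A read that lies within those 22 bases therefore fits both. miR-103-2-5p and miR-107-5p differ by C16U. The 3 names share a seed that no further name with a sequence had.

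The hairpins are shown with both arms in capitals, because the arms are nearly the same at all 3 loci while the bases outside them differ.
Mir103-2 in Pank2: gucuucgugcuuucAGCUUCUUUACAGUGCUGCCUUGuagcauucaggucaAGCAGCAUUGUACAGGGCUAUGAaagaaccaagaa
Mir107 in Pank1: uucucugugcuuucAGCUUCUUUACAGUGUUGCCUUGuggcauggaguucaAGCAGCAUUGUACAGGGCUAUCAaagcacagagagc
Mir103-1 in Pank3: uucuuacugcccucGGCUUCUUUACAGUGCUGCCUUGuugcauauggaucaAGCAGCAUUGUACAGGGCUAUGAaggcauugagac
In GRCm38, Mir103-2 (ENSMUSG00000065563.1) lies at chr2:131288052-131288137 on the plus strand, in intron 5 of 6 of Pank2 (ENSMUSG00000037514.17). Mir107 (ENSMUSG00000065594.1) lies at chr19:34820687-34820773 on the minus strand, in intron 5 of 6 of Pank1 (ENSMUSG00000033610.16). Mir103-1 (ENSMUSG00000065553.1) lies at chr11:35782396-35782481 on the plus strand, in intron 5 of 6 of Pank3 (ENSMUSG00000018846.8). Each hairpin has the strand of its host gene. The exon upstream is 454 bases from Mir103-2, 326 from Mir107 and 688 from Mir103-1, and the exon downstream is 5261, 6869 and 966 bases away. In every hairpin 14 bases separate the arms. Around the 3p arm, Mir103-1 and Mir103-2 are identical over 27 bases, namely 3 before the arm, the arm itself and 1 after it. The name miR-103-3p therefore sums reads from Pank2 and Pank3, and its count carries no information on the locus.

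The 3p arms carried nearly all counts of the family, and miR-103-3p was several times as abundant as miR-107-3p in both libraries. miR-103-3p had 26442 counts in replicate 1 and 32135 in replicate 2, or 3611 and 3970 RpM (mean 3790 ± 254, SD, n = 2), which is 0.379% of all miRNA counts. Its rank among all names was 35 in replicate 1 and 30 in replicate 2. miR-107-3p had 4005 and 4761 counts, or 547 and 588 RpM (mean 568 ± 29.2, SD, n = 2), and stood at rank 79 in both libraries. All intervals of shares are 95% Wilson intervals from the counts of a single library, so they describe counting error alone. PCR copies of a molecule cannot be recognised without identifiers. The intervals may therefore be too narrow, and the p-values of the count tests too small. For miR-103-3p the interval was 3568 to 3655 RpM in the first library and 3927 to 4014 RpM in the other, so the difference between the libraries exceeded counting error. In RNA from bulk cultures, a level set by few cells and one set by little RNA per cell cannot be told apart.

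The 5p arms were near the limit of detection. miR-103-2-5p, the partner from Pank2, had 16 and 9 counts (2.18 and 1.11 RpM). miR-107-5p, from Pank1, had 9 and 10 counts (1.23 and 1.24 RpM). miR-103-1-5p, from Pank3, had 1 and 3 counts (0.137 and 0.371 RpM), at or under the 3 counts that a count of 0 would allow, which is 0.41 RpM in replicate 1 and 0.371 RpM in replicate 2. The mean levels fell in the order miR-103-3p, miR-107-3p, miR-103-2-5p, miR-107-5p and miR-103-1-5p. miR-103-2-5p and miR-107-5p did not differ beyond their spread, with miR-103-2-5p the higher in replicate 1 and the lower in replicate 2.

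**Figure D1:**
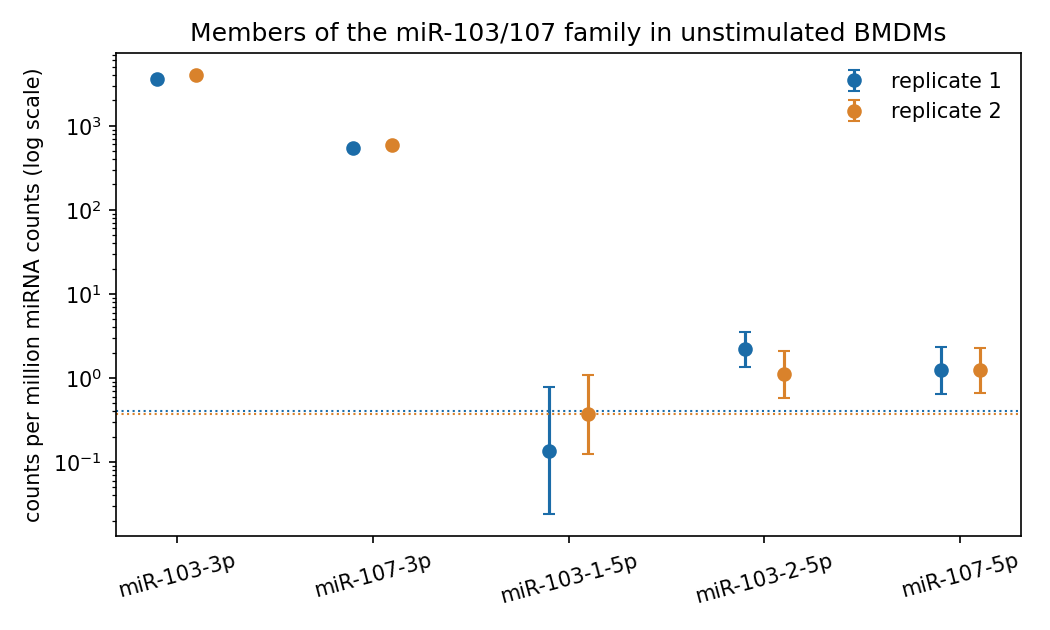
Level of each member in RpM on a log axis, with 1 point per library, 95% Wilson intervals as bars and dotted lines at 3 counts. The 3p names lie between 547 and 3970 RpM and the 5p names between 0.137 and 2.18 RpM.

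Near miR-103-3p in mean level stood, directly above, miR-125a-5p (4144 RpM), miR-140-3p (4018 RpM) and miR-23a-3p (3809 ± 478 RpM, SD, n = 2) and, directly below, miR-24-3p (3741 RpM), miR-26b-5p (3643 RpM) and miR-23b-3p (3496 ± 423 RpM, SD, n = 2). Within each library, miR-125a-5p and miR-140-3p were above miR-103-3p and miR-26b-5p was below it, whereas miR-23a-3p, miR-24-3p and miR-23b-3p were above it in replicate 1 and below it in replicate 2. Around miR-107-3p stood miR-101b-3p (673 RpM), miR-99a-5p (619 RpM) and let-7e-5p (608 RpM) above, and miR-298-5p, miR-17-5p (548 RpM) and miR-34a-5p (534 RpM) below. The nearest of them, miR-298-5p, had 292 RpM in replicate 1 and 841 RpM in replicate 2 around a mean of 567 RpM, a far wider spread than that of miR-107-3p.

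miR-103-3p exceeded miR-107-3p by 6.60 to 1 in replicate 1 and by 6.75 to 1 in replicate 2 (mean ratio 6.68 ± 0.104, SD, n = 2). The counting intervals of the ratio were 6.39 to 6.83 and 6.55 to 6.96 and overlapped. The exact two-sided binomial test within each library gave p below 1e-300, which covers counting error only. miR-103-3p thus made up 86.8% of the 3p counts of the family in replicate 1 and 87.1% in replicate 2, with miR-107-3p as the rest. How the authors assigned reads that fit both names is not given in the sources used here. Nor is it given whether a miR-103-3p read, which matches the stem-loops of Mir103-1 and Mir103-2, was counted once or once per stem-loop. Counting per stem-loop would raise the count and level of miR-103-3p, and with them the ratio and the share. The part of these rules in the ratio was not tested.

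The split between miR-103 and miR-107 differed by arm. In the 5p arms, where miR-103-1-5p and miR-103-2-5p were summed, miR-103 had 17 counts against 9 of miR-107 in replicate 1 and 12 against 10 in replicate 2. These are ratios of 1.89 (interval 0.859 to 4.15) and 1.20 (interval 0.53 to 2.71). Both intervals lie below the ratio of the 3p arms in the same library. The 3p ratio was 3.50 times the 5p ratio in replicate 1 (95% interval 1.37 to 8.30, adjusted p = 0.00447) and 5.62 times in replicate 2 (95% interval 2.18 to 14.2, adjusted p = 0.000377), by Fisher's exact test, two-sided, adjusted over both libraries by the Benjamini-Hochberg method. The mean over the libraries was 4.56 ± 1.51 (SD, n = 2), with the same direction in 2 of 2 libraries. The tests cover counting error within a library. Reads that match more than 1 stem-loop, such as those of miR-103-3p, could be counted once or once per stem-loop. Counting once per stem-loop would raise the 3p ratio. It could also raise the 5p ratio, through reads within the 22 bases that miR-103-1-5p and miR-103-2-5p share. Which rule was used is not given in the sources used here, and its part in the arm difference was not tested.

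**Figure D2:**
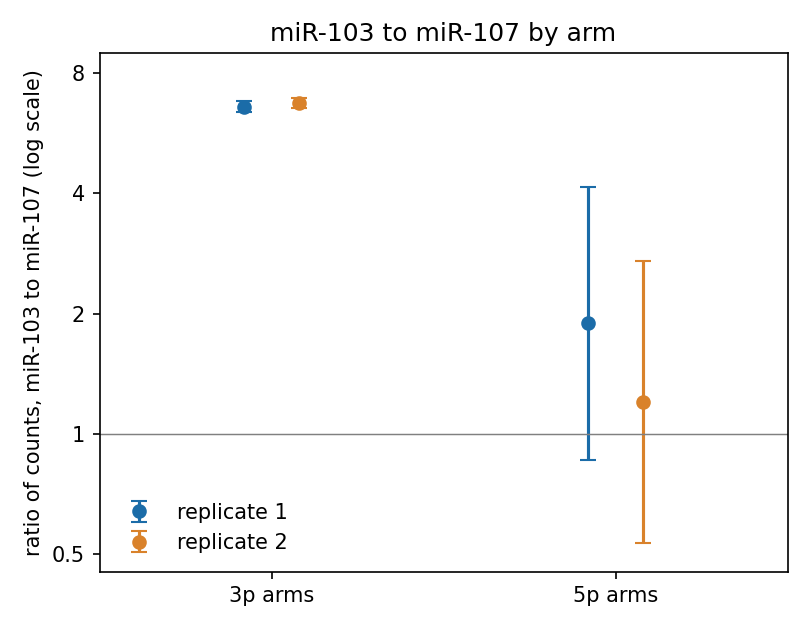
Ratio of miR-103 to miR-107 counts on a log axis in the 3p and the 5p arms, with 1 point per library and 95% Wilson intervals as bars. The 3p ratios are 6.60 and 6.75 with narrow intervals, and the 5p ratios of 1.89 and 1.20 lie below them.

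Within the 5p counts of the 3 loci, most were assigned to the names from Pank2 and Pank1 and few to the name from Pank3. In replicate 1, miR-103-2-5p from Pank2 held 61.5% of 26 counts (Wilson interval 42.5% to 77.6%), miR-107-5p from Pank1 34.6% (19.4% to 53.8%) and miR-103-1-5p from Pank3 3.85% (0.682% to 18.9%). In replicate 2, miR-103-2-5p held 40.9% of 22 counts (23.3% to 61.3%), miR-107-5p 45.5% (26.9% to 65.3%) and miR-103-1-5p 13.6% (4.75% to 33.3%). The name from Pank3 was the lowest in both libraries, and the names from Pank2 and Pank1 changed places. The mean share of miR-103-1-5p was 8.74% ± 6.92 (SD, n = 2), so that 1 library moves it by over 1.5 times: it is 13.6% without replicate 1 and 3.85% without replicate 2.

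Of the 6 comparisons of a pair of 5p names within a library, 1 passed the threshold of 0.05. This was miR-103-1-5p with 1 count against miR-103-2-5p with 16 in replicate 1 (exact two-sided binomial test, adjusted p = 0.00165 over the 6 comparisons). The same pair, with 3 against 9 counts in replicate 2, had an adjusted p of 0.219 in the exact binomial test. miR-103-1-5p against miR-107-5p had adjusted p-values of 0.0645 and 0.185, and miR-103-2-5p against miR-107-5p of 0.275 and 1, by the same exact test. With the reads of both libraries pooled, miR-103-1-5p had 4 counts against 25 of miR-103-2-5p (exact binomial test, adjusted p = 0.000311 over 3 pairs) and 19 of miR-107-5p (adjusted p = 0.0039), whereas miR-103-2-5p and miR-107-5p did not pass (adjusted p = 0.451). Pooling leaves out the spread between the libraries, so these values cover counting error only, and miR-103-1-5p against miR-107-5p passed in neither library alone. At this depth no difference between the names from Pank2 and Pank1 was detectable.

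**Figure D3:**
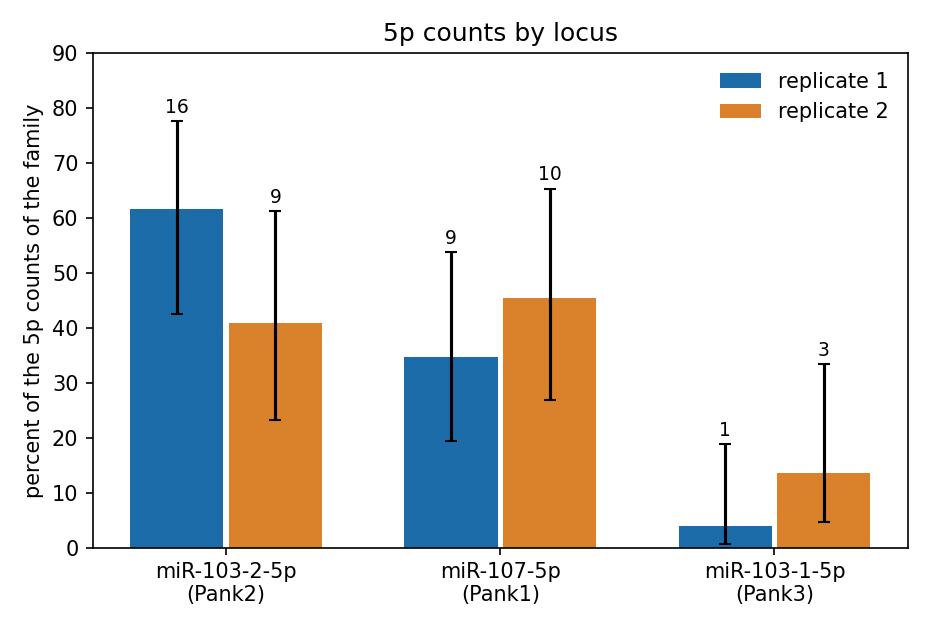
Share of each 5p name, with its host gene, among the 5p counts of the family in each library, with 95% Wilson intervals as black bars and the counts printed above them. miR-103-1-5p from Pank3 has 1 and 3 counts and is the lowest in both libraries.

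For miR-103 alone, the 5p counts assigned to Pank2 were 16 of 17 in replicate 1 (94.1%, Wilson interval 73% to 99%) and 9 of 12 in replicate 2 (75%, 46.8% to 91.1%). In both libraries the name from Pank2 thus had more 5p counts than the name from Pank3. Since these names differ in their first base alone, reads within the other 22 bases do not separate them, and which reads the split rests on was not tested. The share of a locus in the 5p counts also depends on how often its 5p arm is kept, and locus output and arm use cannot be told apart in these counts. The Pank messenger RNAs were not analysed here.

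Other miRNAs with a pair of hairpins and locus-numbered names were read in the same way. Of 16 such miRNAs with at least 50 counts in the numbered names, 2, let-7a and let-7c, were left out after their values were seen, because let-7a-1-3p and let-7c-2-3p have the same mature sequence and the same 1378 and 1092 counts. For the other 14, the locus with more counts held between 52% and 100% of them (median 98%). In 10 of the 14 it held over 90%, and in 3, let-7f, miR-16 and miR-29b, under 75%. miR-103, with 84.6% for the locus in Pank2 in the mean of both libraries, was read from 29 counts, fewer than that minimum. Among the deepest, miR-24-2-5p had 15691 and 16790 counts against 234 and 160 of miR-24-1-5p. miR-181a-1-3p had 2313 and 2119 counts against 1 and 3 of miR-181a-2-3p. With its few counts, the 5p split of miR-103 could not be placed within this range.

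**Figure D4:**
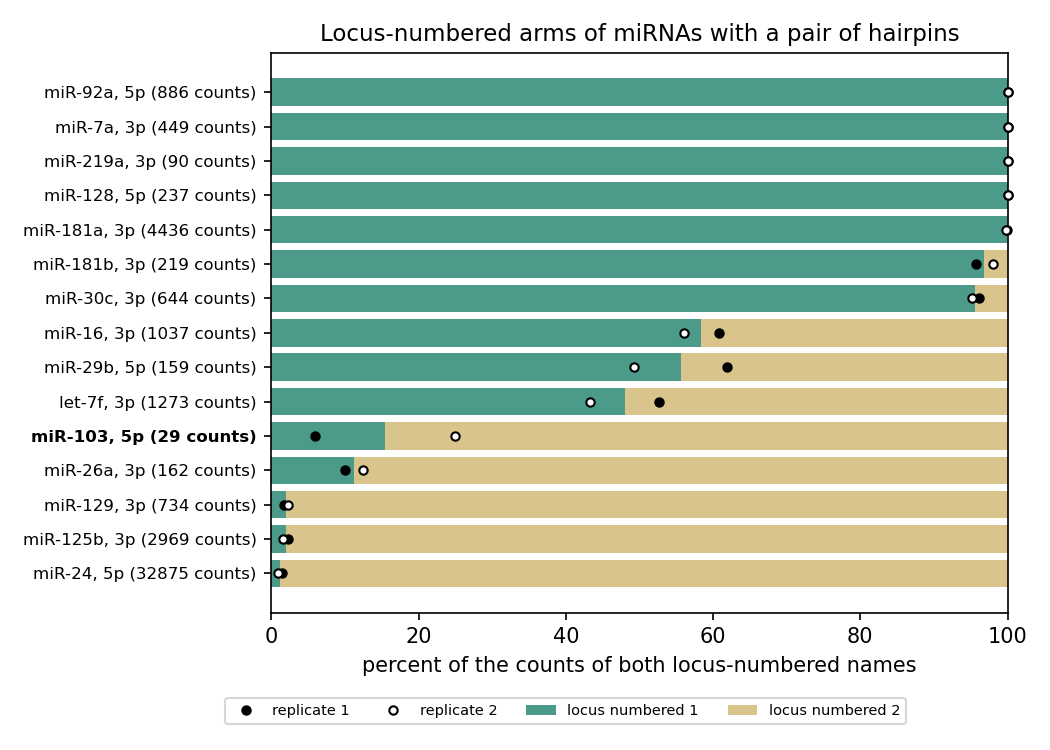
Share of the counts of both locus-numbered names that fell on the locus numbered 1 or 2, for 14 miRNAs with a pair of hairpins and for miR-103 (bold), as the mean of both libraries, with filled and open points for replicates 1 and 2 and the summed counts in brackets. miR-103 has 5.88% and 25% on the locus numbered 1, which lies in Pank3.

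Arm use was one-sided. The 5p names held 26 of the 30473 counts of the family in replicate 1 (0.0853%, Wilson interval 0.0582% to 0.125%) and 22 of 36918 in replicate 2 (0.0596%, interval 0.0394% to 0.0902%), a mean of 0.0725% ± 0.0182 (SD, n = 2). For every 5p count there were 1171 and 1677 counts of the 3p arms. Taken by name, the 5p share of miR-107 was 0.224% and 0.21%, and that of miR-103 was 0.0643% and 0.0373%. The 5p share was thus higher for miR-107 than for miR-103 in both libraries, which is the arm difference tested above in another form.

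Most other hairpins were less one-sided than the family. Among 197 other miRNAs with both arms named and at least 100 counts over both arms and libraries, the rarer arm held a median of 2.73% of the counts (quartiles 0.568% and 14.8%). The rarer arm was 5p, as in miR-103 and miR-107, in 85 of them and 3p in 112. In 17 of the 197 (8.63%) its share was below the 0.0725% of the family, and 10 of these 17 had no count of the rarer arm at all. The place depends on the minimum, since with at least 10 counts 57 of 328 (17.4%) were below the family. Some of the 197 may hold the same reads under more than 1 name, which was not tested. Without the 12 that have an arm with exactly the counts of another name, 17 of 185 (9.19%) were below the family. This choice was made after the data were seen. The 185 still include miR-199a and miR-199b, whose 3p arms have the same mature sequence and nearly equal counts. Among the 70 at least as deep as miR-107, the median was 1.48% and 6 had a lower share. Of the 197, 7.61% had a lower share than miR-103 and 15.2% a lower share than miR-107. The 3 miRNAs whose share was nearest to the 0.0508% of miR-103, chosen after their values were seen, were miR-192 (0.0494%), miR-146b (0.0455%) and miR-146a (0.0417%), in each of which 3p is the rarer arm.

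**Figure D5:**
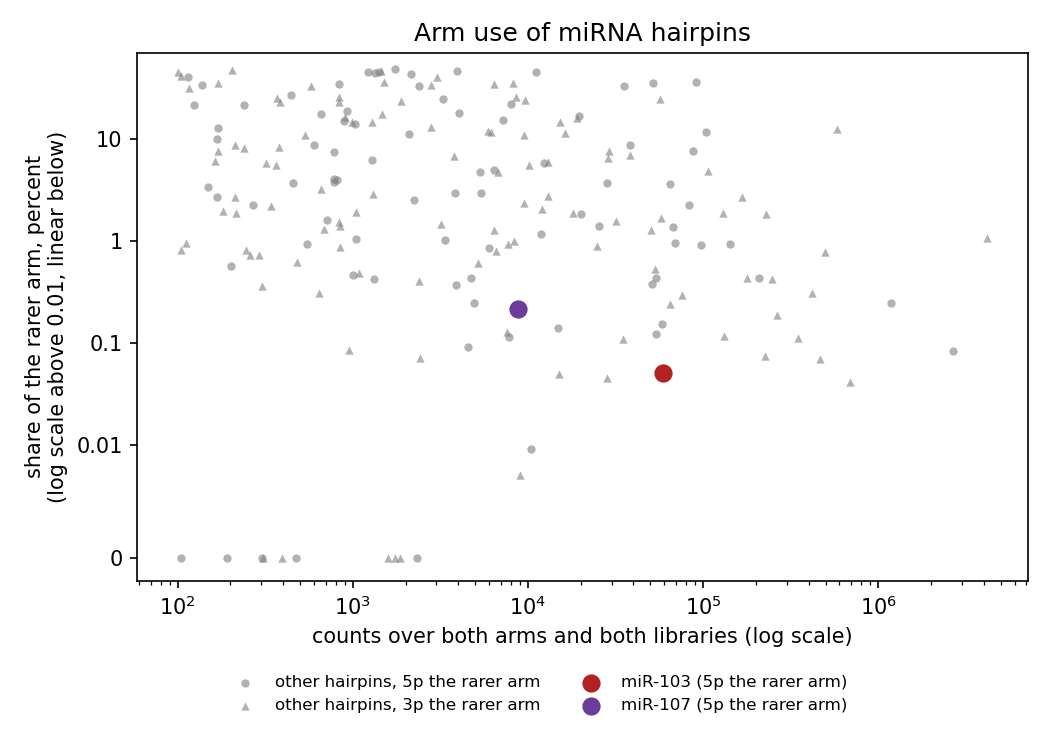
Share of the rarer arm (mean of both libraries, log scale above 0.01% and linear below) against the counts over both arms on a log axis, for 197 other miRNAs and for miR-103 and miR-107. miR-103 lies at 0.0508% and miR-107 at 0.217%, both below the median of 2.73%.

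The seed of the miR-15/16 group overlaps that of miR-103 and miR-107, and these miRNAs share part of their predicted targets. Examples are shown with the seed in capitals (RefSeq, GRCm38.p6).
miR-16-5p: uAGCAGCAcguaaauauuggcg
miR-15a-5p: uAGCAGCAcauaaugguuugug
miR-322-5p: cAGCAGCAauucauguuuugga
The letters AGCAGCA form bases 2 to 8 of each of the 6 members of that group and start at base 1 of miR-103-3p and miR-107-3p, so the seeds are offset by 1 base. The 2 family members together had 4158 and 4558 RpM (mean 4358 ± 283, SD, n = 2). The miR-15/16 group had 18576 and 19089 RpM (mean 18832 ± 363, SD, n = 2), which is 4.33 ± 0.198 times as much (SD, n = 2). miR-16-5p made up 84.2% of the group, at 15866 RpM. miR-103-3p was above each of its other members, of which miR-15a-5p had 1157 RpM, miR-15b-5p 936 RpM and miR-322-5p 844 RpM. miR-107-3p was below those 3 and above miR-497a-5p (15.8 RpM) and miR-195a-5p (14.3 RpM).

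Between the libraries, 2 of the 4 members with at least 10 counts summed, miR-103-3p and miR-107-3p, passed Fisher's exact test at an adjusted p under 0.05, where 44.2% of all 588 names tested did so in either direction and 13.8% in the direction of both members, higher in replicate 2. This test compares 2 libraries, not conditions. miR-103-3p was higher in replicate 2 by 0.14 on the log2 scale (adjusted p = 2.09e-29, Fisher's exact test with Benjamini-Hochberg adjustment) and miR-107-3p by 0.10 (adjusted p = 0.00205, the same exact test). Under library totals both differences were smaller than the median size of 0.24 over the 170 names with at least 1000 counts summed. miR-103-2-5p (adjusted p = 0.206) and miR-107-5p (adjusted p = 1) did not pass the exact test, and miR-103-1-5p had too few counts to be tested. Scaling by TMM moved every log2 ratio up by 0.13, and by DESeq2 size factors by 0.14, so that miR-103-3p stood at 0.27 and 0.28 and miR-107-3p at 0.23 and 0.25, with no change of direction. The median size over the 170 names was then 0.25 under either scaling, so that miR-103-3p stood above it and miR-107-3p just below. Of the names called, 31.2% were higher in replicate 2 under library totals, 47.1% under TMM scaling and 49.4% under the size factors of DESeq2.

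The makeup of the libraries was read from markers. The 5 miRNAs of macrophages and other blood cells together had 356443 RpM in one library, replicate 1, and 354108 RpM in the other, led by miR-21a-5p, and each was detected. The paper's introduction describes miR-21 in endothelial and vascular smooth muscle cells too, so these sums are not specific to blood cells. The near-equal sums hide opposite differences. miR-146a-5p, which inflammatory signals induce, had 27603 RpM in replicate 1 and 59649 RpM in replicate 2. The other 4 were lower in replicate 2, with 279747 and 257096 RpM of miR-21a-5p, 37030 and 29252 RpM of miR-142a-5p, 6009 and 3626 RpM of miR-142a-3p, and 6053 and 4485 RpM of miR-223-3p. The lymphocyte marker miR-150-5p had 27.6 and 10.9 RpM, the erythroid markers miR-451a and miR-144-3p summed to 1.23 and 0.988 RpM, and the endothelial marker miR-126a-3p had 14.1 and 10.9 RpM. The 4 epithelial markers summed to 152 and 165 RpM, led by miR-200b-3p, which had 67.7 and 102 RpM, while the other 3 were lower in replicate 2. The liver marker miR-122-5p was at 0 in both libraries, as were the muscle markers miR-1a-3p and miR-206-3p and the neuron marker miR-124-3p, while miR-133a-3p had 0 and 6 counts and miR-9-5p 12 and 11. The part of these differences in the levels of miR-103-3p and miR-107-3p was not tested.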

How the data were processed

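Small RNA libraries of unstimulated BMDMs were analysed, replicates 1 and 2. After trimming, the authors aligned the reads to mouse miRBase stem-loops with Bowtie 0.12.7, and they deposited raw counts per mature miRNA name. The genome build, the miRBase release and the rules for mismatches and multiple matches are not given in the sources used here. Among names with the same mature sequence, let-7a-1-3p and let-7c-2-3p had equal counts. Those of miR-199a-3p (280 and 262) and miR-199b-3p (278 and 261) were nearly but not exactly equal.

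Counts were divided by the library total. Pairs within a library were tested by exact two-sided binomial tests, and arms and libraries by Fisher's exact test with Benjamini-Hochberg adjustment at 0.05 (Python 3.11.15, scipy 1.17.1). The test between libraries took the 588 names with at least 10 counts summed and was tested on simulated data. It called 0 of 588 names without a change, and 72.9% of 192 changed names with a 2-fold change. The simulated counts held counting error only, so they do not show how the test behaves under the spread between real libraries. Ligation and PCR favour some sequences, so counts of different names need not be in proportion to their molecules. edgeR 4.0.16 (TMM) and DESeq2 1.42.0 gave alternative scalings in R 4.3.3. Sequences came from RefSeq (GRCm38.p6) and matched all 5 members, and introns from GENCODE M21 (GRCm38), in the principal coding transcript of each Pank gene. Members and lists were chosen with earlier results of these data known. The miRNAs named were the members, those that share or overlap their seed, the 3 names on each side of both 3p members in mean level, locus-numbered pairs with at least 50 counts, miR-33, miR-378a and markers. Outside that rule, miR-192, miR-146b, miR-199a-3p and miR-199b-3p were named after their values were seen.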

Additional observations from a re-analysis of the deposited data

How the results depend on the processing

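The alternatives were pooled reads, names with at least 10 counts in every library, scaling by TMM or DESeq2, the total without miR-21a-5p, each library alone, 0.5 added to each count, other count minimums, libraries thinned to equal totals and, chosen after the data were seen, arm use without miRNAs that have the counts of another name. Leaving aside the values from 1 library alone, 14 of 16 values without a test moved by less than the spread between the libraries, 2 of 2 tested ratios kept their direction and their side of the threshold, and 7 of 8 counts of names and places among miRNAs stayed within 1.5 times the value reported. Without miR-21a-5p in the total, miR-103-3p had 5179 RpM and miR-107-3p 776 RpM, since the total is then smaller. With a minimum of 10 counts over both arms, 17.4% of 328 other miRNAs had a lower share of the rarer arm than the family. The ratio of miR-103-3p to miR-107-3p lay between 6.60 and 6.75, and the number of names that differed between the libraries lay between 241 and 260. With at least 1 count summed, 247 of the 1013 names tested differed, and with at least 50 counts summed 241 of 383. The share of names called thus depends on the minimum. With 1 library left out, the place of the family in arm use was 9.64% to 11.7%. Leaving out 1 of 2 libraries cannot move a mean by more than their SD, so it says little about stability.

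No paired analysis was possible because there is a single condition. With 48 counts of the 5p arms in all, depth limits each statement on the Pank loci, and miR-103-1-5p rests on 4 counts. The 3p counts carry no information on the locus of miR-103. Read lengths and end positions were not analysed here, so reads that fit more than 1 member could not be counted. Precision of the 3p levels is limited by the number of libraries.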

Other observations

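Of other miRNAs in introns of metabolic genes, miR-378a and miR-33 were examined. Their more abundant arms stood on opposite sides of miR-103-3p and miR-107-3p in level. miR-378a-3p, from an intron of Ppargc1b, a coactivator of mitochondrial genes, had 12822 RpM in replicate 1 and 13940 RpM in replicate 2 (mean 13381 ± 790, SD, n = 2), above the 3790 RpM of miR-103-3p. miR-378a-5p, its partner, held 0.505% and 0.361% of the counts of both arms, a larger share than the 5p arms of miR-103 and miR-107 had. miR-33-5p, from an intron of Srebf2, the regulator of cholesterol synthesis, had 31.7 and 18.7 RpM (mean 25.2 ± 9.21, SD, n = 2), below miR-107-3p. Its partner miR-33-3p had 18.3 and 7.78 RpM and held 36.6% and 29.4% of the counts of both arms. miR-33 thus had more counts of 5p than of 3p in both libraries. miR-378a, miR-103 and miR-107 were read almost wholly from the 3p arm.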
